A study of Mus musculus with 18 samples.

Results

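The genes described here are 10 components of fibroblast growth factor (FGF) signalling in the mouse mammary epithelium: the receptors Fgfr1, Fgfr2 and Fgfr3, the ligands Fgf1 and Fgf2, the Sprouty genes Spry1, Spry2 and Spry4, and the Sprouty-related genes Spred1 and Spred2. They were chosen by name, as the main receptors, ligands and feedback inhibitors of the pathway, and are 10 of the 52636 gene identifiers in each file. RNA was sequenced from 3 epithelial populations sorted from the mammary glands of 6 nulliparous mice, 12 weeks old and untreated, giving 6 libraries per population. All 3 groups carry the MMTV-Cre transgene, in which the mouse mammary tumour virus promoter drives Cre recombinase, and no mice without it were compared. Basal cells were sorted as CD49f-hi/CD61+, alveolar progenitors (AP, also called luminal progenitors) as CD49f-lo/CD61+, and hormone-sensing luminal cells (HSL, also called mature luminal cells) as CD49f-lo/CD61-. CD49f and CD61 are integrin chains; antibodies to EpCAM and to CD31, CD45 and Ter119, antigens of endothelial and blood cells, were used as well. Complementary DNA was made with the Smart-Seq v4 kit, and sequencing libraries were made with the Nextera XT kit, in which strand is not kept.

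FGF ligands bind receptor tyrosine kinases together with heparan sulphate, and the activated receptors signal through adaptor proteins, RAS and the kinase ERK. Sprouty and Spred proteins restrain the step from the receptor to ERK, and several of them are themselves induced by ERK signalling, which makes them a negative feedback. In the mammary gland, FGF ligands from the stroma and their receptors in the epithelium are known for their part in the growth and branching of the ducts.

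Libraries held between 26516293 and 91095830 counts. The sorted labels matched their markers: the summed level of 6 basal markers (Krt5, Krt14, Acta2, Trp63, Oxtr and Myh11) was 22511.5 to 40659.9 CPM (counts scaled to library size by the TMM method) in basal libraries and at most 274 in the others. The summed level of 6 AP markers was 2215 to 5892 CPM in AP libraries and at most 550 elsewhere, and that of 6 HSL markers was 2832 to 6126 CPM in HSL libraries and at most 1649 elsewhere. The 3 libraries numbered 1 stood apart on the third principal component of all genes tested (7.82% of the variance), with scores of 76.05, 89.31 and 90.87 against -54.77 to 19.47 in the other 15. On the first component (55.8% of the variance), HSL sample 1, at 50.3, lay within the AP range of 7.94 to 53.6. The other HSL libraries were at 109.0 to 147.3. In HSL sample 1 the HSL markers Pgr and Ly6a were at 97.3 and 132 CPM, below AP sample 2 at 123 and 382. Its other HSL markers lay above every AP library. Of the 27 combinations of a tested member and a population, sample 1 held the lowest of the 6 values in 14 and the highest in 3. Values without sample 1 are given beside the results on the members that depend on it, and beside Etv4, Etv5 and Ccnd1.

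Of the 10 members 9 passed the filter on low counts and were tested, and Fgf2 did not. Differences were tested with edgeR's quasi-likelihood test over 16471 genes, and a gene was called at a Benjamini-Hochberg adjusted p under 0.05. Against basal cells, AP cells had 5 members lower (Fgfr2, Fgf1, Spry1, Spred1 and Spred2), 0 higher and 4 not called, where 44.7% of all genes tested were called and 23.1% were called lower. HSL cells had 8 members lower and 1 higher (Fgfr2) than basal cells, where 58.4% of all genes were called, 30.6% lower and 27.8% higher. Between HSL and AP cells, 3 members were higher in HSL cells (Fgfr2, Spry1 and Spred2), 4 were lower (Fgfr1, Fgfr3, Spry2 and Spry4) and 2 were not called, where 39.9% of all genes were called, 19.8% higher and 20.1% lower. Of the genes called between HSL and AP cells, 49.6% were higher in HSL cells, and 35.6% with total-count scaling. The median log2 difference of the 9 tested members was -0.73 in the first of these comparisons, -1.91 in the next and -0.39 in the last, beside -0.001, -0.06 and -0.01 over all genes tested. Called with a difference of at least 2-fold were 4 members in AP against basal cells (28.0% of all genes), 7 in HSL against basal cells (37.4%) and 4 between HSL and AP cells (21.9%). Each pair of these comparisons shares the 6 libraries of a population, so they are not independent of each other. In sorted bulk samples, fewer cells of a type and less RNA per cell cannot be told apart.

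**Figure D1:**
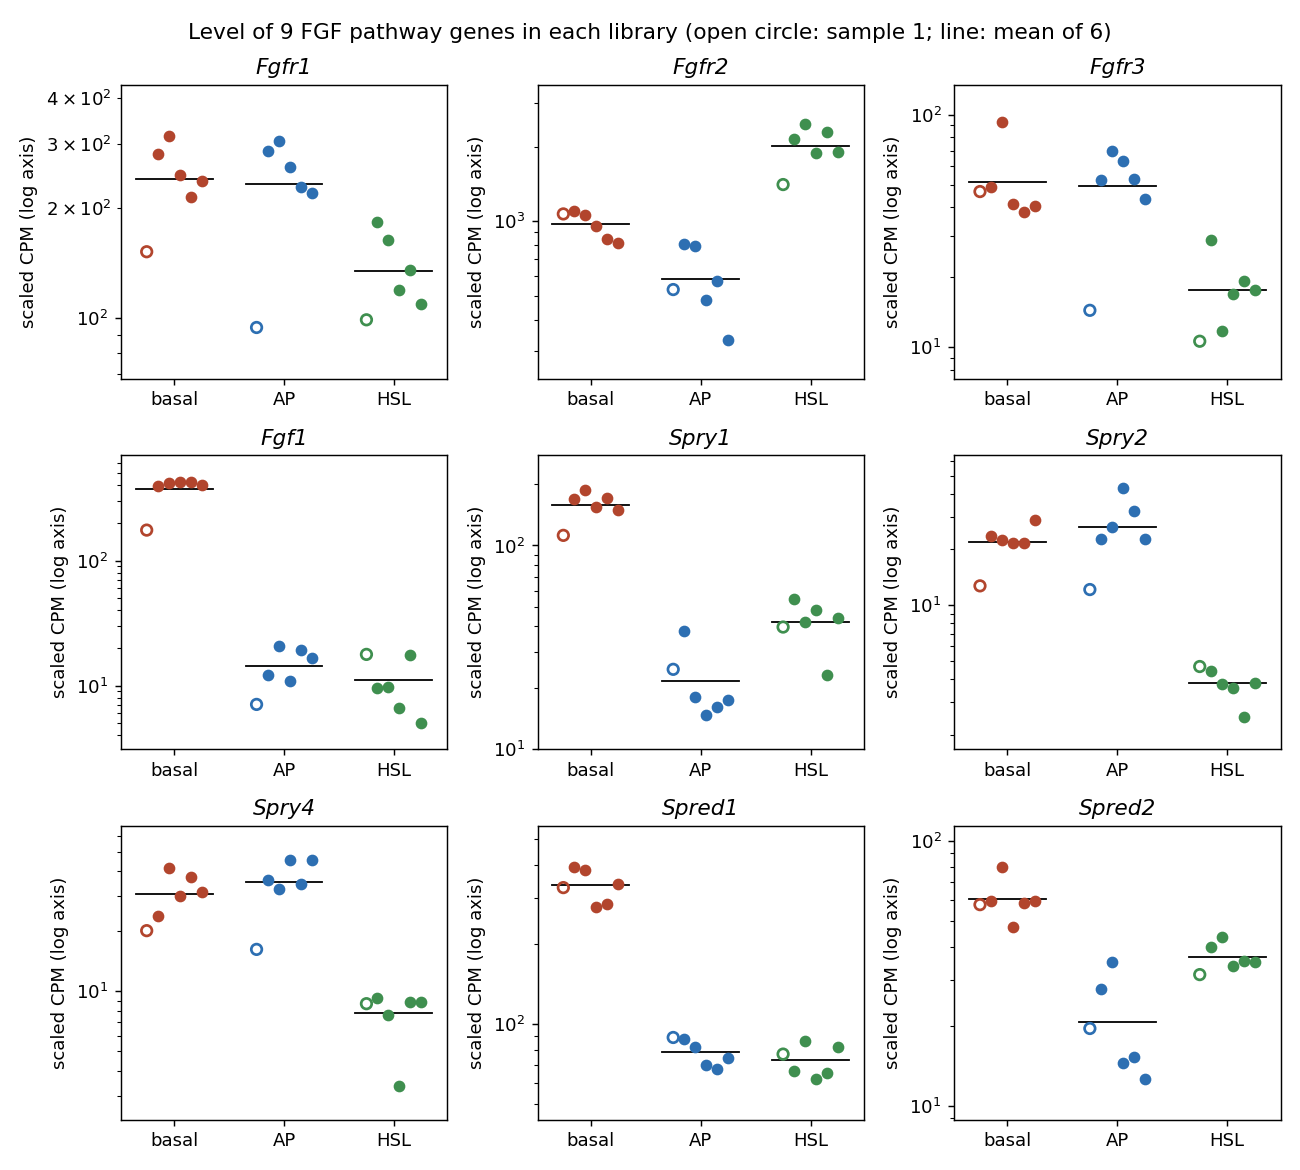
Level of the 9 tested members in each of the 18 libraries, as scaled CPM on a log axis, by population; open circles are sample 1 and each line is the mean of 6 libraries. Fgfr2 was highest in HSL libraries, Fgf1, Spry1, Spred1 and Spred2 in basal libraries, and Fgfr1, Fgfr3, Spry2 and Spry4 overlapped between basal and AP libraries.

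Fgfr2 (chr7:130162451-133123350 on GRCm38, minus strand), the receptor whose epithelial form binds the stromal ligands Fgf7 and Fgf10, was the one member that was highest in HSL cells. Its level was 819.5 to 1094 CPM in basal libraries (median 1007), 332 to 807 in AP libraries (median 551) and 1405 to 2470.0 in HSL libraries (median 2019.7). All 6 HSL libraries lay above all 6 basal libraries. The basal libraries lay above all 6 AP libraries by a narrow gap (819.5 against 807 CPM), and whether that gap holds under other scalings was not tested. Fgfr2 was 2.07-fold higher in HSL than in basal cells (log2 difference 1.05 ± 0.19 SE, adjusted p = 0.000136) and 3.44-fold higher in HSL than in AP cells (log2 difference 1.78 ± 0.20, adjusted p = 1.88e-06). It was 1.66-fold lower in AP than in basal cells (log2 difference -0.73 ± 0.19, adjusted p = 0.0042). That last call was lost with samples 1 to 3 only (log2 difference -0.56, adjusted p = 0.164).

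The gene model behind the Fgfr2 count is wide. In the annotation it spans 2.9609 Mb, because 1 of its 27 transcripts runs beyond the RefSeq span of 104.358 kb, in which the other 26 transcripts and 97.0% of the exon bases lie. Of the 69 genes that share the span, 68 lie wholly inside it, 29 of them protein coding, among them Ate1, Plekha1, Bub3 and Oat. All 68 stood at a count of 0 in all 18 libraries. Among protein-coding genes at large, 89.7% of the 1264 that lie wholly under other genes stood at 0 throughout, against 22.4% of the 12082 that share no base. Reads from stretches that the wide model holds alone would be counted as Fgfr2, and their part in the differences was not tested. The 250 bases before the RefSeq start of Fgfr2, shown because it was the member highest in HSL cells, lie at chr7:130266809-130267058 (GRCm38.p6, minus strand, 5′ to 3′).

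Fgfr2: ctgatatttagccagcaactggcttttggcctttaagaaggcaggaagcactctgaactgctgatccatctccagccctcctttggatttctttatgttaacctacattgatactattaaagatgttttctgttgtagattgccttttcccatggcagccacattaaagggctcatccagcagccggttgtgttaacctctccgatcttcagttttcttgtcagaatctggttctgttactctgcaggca

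Fgfr1 (chr8:25513654-25575718, plus strand), the receptor that many FGF ligands share, was lowest in HSL cells. Its level was 152 to 314 CPM in basal libraries (median 242), 94.1 to 306 in AP libraries (median 244) and 98.7 to 183 in HSL libraries (median 127). Sample 1 was the lowest library of each population, and without it the AP libraries, at 220.0 CPM and more, all lay above the HSL libraries. Fgfr1 was 1.78-fold lower in HSL than in basal cells (log2 difference -0.84 ± 0.24, adjusted p = 0.00556) and 1.72-fold lower than in AP cells (log2 difference -0.79 ± 0.24, adjusted p = 0.0131). The difference between HSL and AP cells was not called without sample 4 (log2 difference -0.72, adjusted p = 0.0632), and neither difference was called with samples 1 to 3 only (adjusted p = 0.231 against basal and 0.400 against AP cells). The difference between AP and basal cells was not called (log2 difference -0.05, 95% interval -0.55 to 0.44, adjusted p = 0.882), and its sign turned under total-count scaling (0.076) and without sample 1 (0.014). The noncoding gene Gm16159 lies inside Fgfr1 on the opposite strand and shares 3.1% of its exon bases.

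Fgfr3 (chr5:33721674-33737068, plus strand), a related receptor, followed the same order at a lower level. Its level was 38.2 to 92.7 CPM in basal libraries (median 43.9), 14.4 to 70.1 in AP libraries (median 52.6) and 10.6 to 29.0 in HSL libraries (median 17.3). No HSL library reached the basal range, and AP sample 1 was the one AP library within the HSL range. Fgfr3 was 2.93-fold lower in HSL than in basal cells (log2 difference -1.55 ± 0.33, adjusted p = 0.000532) and 2.82-fold lower than in AP cells (log2 difference -1.50 ± 0.33, adjusted p = 0.00141), the latter not called with samples 1 to 3 only (adjusted p = 0.167). AP and basal cells were not called different (log2 difference -0.06, 95% interval -0.73 to 0.62, adjusted p = 0.904), and the sign turned under total-count scaling (0.059) and without sample 1 or sample 3 (0.11 each). With samples 4 to 6 only, Fgfr3 was called higher in AP than in basal cells (log2 difference 0.44, adjusted p = 0.0272). The neighbouring gene G630022F23Rik shares 13.9% of the Fgfr3 exon bases.

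Per kilobase of exon, Fgfr2 had the highest mean level of the 3 receptors in every population: 94.3 CPM per kb in basal, 56.7 in AP and 195 in HSL cells. Fgfr1 had 24.4, 23.5 and 13.6 CPM per kb and Fgfr3 had 7.18, 6.91 and 2.45, in the same order of populations. Of the counts per kb of the 3 receptors, Fgfr2 held 75.1% ± 4.25 (SD, n = 6) in the basal libraries, 65.0% ± 9.93 in the AP and 92.4% ± 1.11 in the HSL libraries. The share of Fgfr1 was 19.3% ± 3.58, 27.1% ± 7.31 and 6.46% ± 0.878. The ratio of Fgfr2 to Fgfr1 within a library does not depend on the scaling between libraries. It was 3.23 to 6.74 in basal libraries (median 3.72), 1.44 to 5.38 in AP libraries (median 2.44) and 11.2 to 16.6 in HSL libraries (median 14.7). HSL libraries lay above all others, with a log2 difference of 1.87 from basal and 2.55 from AP cells (two-sided exact permutation test, p = 0.00216 for each, the smallest that 6 against 6 libraries can give; adjusted over 6 ratio tests 0.00325). Between AP and basal cells the log2 difference was -0.68 (exact permutation p = 0.0649), and with libraries of 1 sample number compared with each other, as a replicate block, the exact sign-flip p was 0.0312, the smallest that 6 pairs can give. Without sample 1 this difference was -0.75 (exact permutation p = 0.00794, unadjusted, and the smallest this test can give with sample 1 left out). The limit on the Fgfr2 count applies to these shares and ratios too. The gene widths deposited with the counts equal the whole span for 44954 of the 52489 matched identifiers, so reads in introns may be included. The width given was 2960900 bases for Fgfr2, 56960 for Fgfr1 and 15345 for Fgfr3. Levels per kb of exon, here and for the Sprouty and Spred genes, may thus not be comparable between genes, which was not tested. Differences in a ratio between populations do not depend on these lengths.

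**Figure D2:**
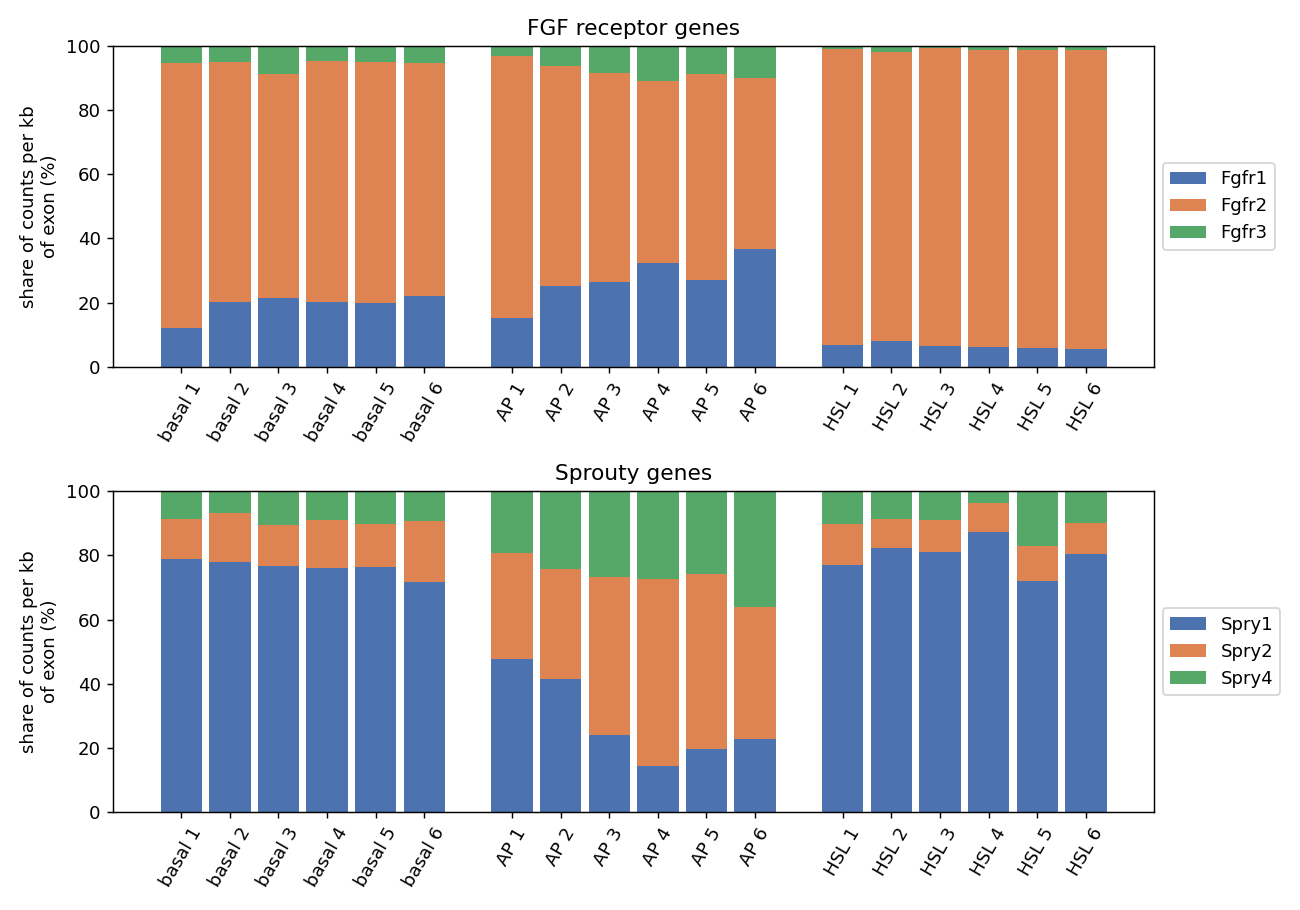
Share of the counts per kb of exon (%, bars stacked to 100) held by each of 3 receptor genes (upper panel) and 3 Sprouty genes (lower panel) in each of the 18 libraries. Fgfr2 held 92.4% on average in HSL libraries, and Spry1 held 28.3% in AP libraries against 76.3% in basal and 80.0% in HSL libraries.

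Fgf1 (chr18:38838673-38929472, minus strand), a ligand that binds all FGF receptors and is made without a classical secretion signal, was high in basal cells. Its level was 176 to 428 CPM in basal libraries (median 409), 7.06 to 20.7 in AP libraries (median 14.4) and 5.02 to 17.7 in HSL libraries (median 9.62). Every basal library was above every luminal library, although basal sample 1, at 176, lay under the other 5, at 397 to 428. Fgf1 was 25.9-fold lower in AP than in basal cells (log2 difference -4.69 ± 0.37, adjusted p = 8.83e-09) and 33.9-fold lower in HSL than in basal cells (log2 difference -5.08 ± 0.37, adjusted p = 2.58e-09). It shared no part of its span with another gene. AP and HSL libraries overlapped, and HSL against AP was not called (log2 difference -0.39, 95% interval -1.06 to 0.28, adjusted p = 0.356). Without sample 1 it was called, at -0.74 (adjusted p = 0.0283).

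Fgf2 (chr3:37348346-37410108, plus strand), the other ligand of this kind, did not pass the filter on low counts. Its counts in samples 1 to 6 were 4, 14, 7, 14, 11 and 7 in basal libraries, 2, 4, 0, 3, 0 and 2 in AP libraries, and 0, 0, 0, 0, 0 and 1 in HSL libraries. The annotation has 99.9% of its span and 99.4% of its exon bases shared with Nudt6, Fgf2os and other genes. With no filter, edgeR's test called Fgf2 lower in AP than in basal cells (adjusted p = 0.0331) and lower in HSL than in basal cells (adjusted p = 0.000698), but not different between HSL and AP cells (adjusted p = 0.102). Because of the shared span, these calls are on the few reads that were counted, and the level of Fgf2 itself cannot be read from them.

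Sprouty proteins are inhibitors that act between the receptor and ERK. Spry1 (chr3:37639947-37644598, plus strand) was highest in basal and lowest in AP cells. Its level was 112 to 188 CPM in basal libraries (median 162), 14.7 to 38.0 in AP libraries (median 17.7) and 23.1 to 54.6 in HSL libraries (median 43.1). Every basal library lay above every luminal library, whereas AP and HSL libraries overlapped: AP samples 1 and 2, at 24.6 and 38.0, were above the lowest HSL library. Spry1 was 7.34-fold lower in AP than in basal cells (log2 difference -2.88 ± 0.24, adjusted p = 2.27e-08) and 3.76-fold lower in HSL than in basal cells (log2 difference -1.91 ± 0.23, adjusted p = 1.41e-06). It was 1.95-fold higher in HSL than in AP cells (log2 difference 0.97 ± 0.23, adjusted p = 0.00247), a call lost with samples 1 to 3 only (log2 difference 0.70, adjusted p = 0.204). The antisense gene Gm42922 shares 24.4% of the Spry1 exon bases, and reads there cannot be assigned by strand. Whether such reads were counted for Spry1 is not known. The levels per kb and ratios of Spry1 below use its full exon length, and would be too low if those reads were dropped.

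Spry2 and Spry4 had another order, with basal and AP libraries overlapping and HSL libraries far lower. Spry2 (chr14:105891947-105896819, minus strand) was at 12.7 to 29.0 CPM in basal libraries (median 22.1), 12.2 to 42.9 in AP libraries (median 24.6) and 2.51 to 4.67 in HSL libraries (median 3.80). Spry4 (chr18:38586247-38601415, minus strand) was at 20.2 to 41.8 CPM in basal libraries (median 30.7), 16.2 to 45.6 in AP libraries (median 35.5) and 3.37 to 9.26 in HSL libraries (median 8.76). For both genes all 6 HSL libraries lay under all 12 others, and sample 1 was the lowest basal and the lowest AP library. Spry2 was 5.75-fold lower in HSL than in basal cells (log2 difference -2.52 ± 0.26, adjusted p = 1.82e-07) and 6.98-fold lower than in AP cells (log2 difference -2.80 ± 0.26, adjusted p = 4.03e-07). Spry4 was 3.96-fold lower in HSL than in basal cells (log2 difference -1.99 ± 0.27, adjusted p = 4.62e-06) and 4.53-fold lower than in AP cells (log2 difference -2.18 ± 0.27, adjusted p = 6.11e-06). Neither was called between AP and basal cells: the log2 difference was 0.28 for Spry2 (95% interval -0.23 to 0.79, adjusted p = 0.376) and 0.19 for Spry4 (-0.35 to 0.73, adjusted p = 0.574).

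Spry1 had the highest mean level of the 3 Sprouty genes per kb of exon in basal and HSL cells, and Spry2 in AP cells. In AP samples 1 and 2, however, Spry1 held a larger share than Spry2 (47.8% against 32.9%, and 41.3% against 34.6%). Spry1 was at 54.2 CPM per kb in basal, 7.39 in AP and 14.4 in HSL cells, Spry2 at 10.5, 12.7 and 1.82, and Spry4 at 6.47, 7.40 and 1.64. Mean levels were close for Spry1 and Spry4 in AP cells and for Spry2 and Spry4 in HSL cells, and these pairs were not tested. In AP cells Spry1 held a larger share than Spry4 in samples 1 and 2, and a smaller share in samples 3 to 6. The ratio of Spry1 to Spry2 was 3.72 to 6.32 in basal libraries (median 5.41), 0.247 to 1.45 in AP libraries (median 0.519) and 6.09 to 9.65 in HSL libraries (median 8.11). All AP libraries lay under all others, with a log2 difference of -3.16 from basal cells and of 3.73 between HSL and AP cells (two-sided exact permutation test, p = 0.00216 each, adjusted 0.00325). Basal and HSL libraries overlapped, with a log2 difference of 0.57 (exact permutation p = 0.00433, adjusted 0.00519). This last difference did not pass in the exact sign-flip test that takes sample number as a replicate block (p = 0.0625). The share of Spry1 among the 3 Sprouty genes was 28.3% ± 13.2 (SD, n = 6) in AP libraries, that of Spry2 45.1% ± 10.6 and that of Spry4 26.6% ± 5.50.

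The 250 bases before the RefSeq start of Spry1 (chr3:37639697-37639946, plus strand) and Spry2 (chr14:105896820-105897069, minus strand) are shown because these related genes had different orders over the populations, and those of Spred1 (chr2:117120821-117121070, plus strand) because it shared with Spry1 the fall from basal to both luminal populations. All are from RefSeq on GRCm38.p6, 5′ to 3′, with matches to the Sp/KLF motif GGGCGG, on either strand, in capitals.

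Spry1: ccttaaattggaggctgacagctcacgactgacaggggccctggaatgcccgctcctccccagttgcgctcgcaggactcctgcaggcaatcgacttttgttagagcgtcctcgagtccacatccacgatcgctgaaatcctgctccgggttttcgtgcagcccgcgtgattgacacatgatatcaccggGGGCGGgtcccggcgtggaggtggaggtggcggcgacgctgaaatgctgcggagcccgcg

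Spry2: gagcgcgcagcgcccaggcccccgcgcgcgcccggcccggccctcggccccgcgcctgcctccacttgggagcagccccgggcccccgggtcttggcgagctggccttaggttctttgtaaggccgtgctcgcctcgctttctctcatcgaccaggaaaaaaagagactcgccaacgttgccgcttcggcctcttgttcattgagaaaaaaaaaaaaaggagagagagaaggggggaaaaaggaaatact

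Spred1: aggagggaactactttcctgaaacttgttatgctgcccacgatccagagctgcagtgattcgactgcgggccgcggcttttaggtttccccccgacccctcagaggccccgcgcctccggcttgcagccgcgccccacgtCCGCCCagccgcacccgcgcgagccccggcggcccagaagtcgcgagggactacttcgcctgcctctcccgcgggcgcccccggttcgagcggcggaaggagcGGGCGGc

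Windows were found for 7 of the 10 members. The window of Spry1 lies inside the antisense gene Gm42922. Those of Spry1 and Spry2 each hold 23 CpG dinucleotides at 62.4% GC, that of Spred1 holds 31 at 70.8% GC, and that of Fgfr2 holds 2 at 44.0% GC, beside a median of 6 CpG and 52.4% GC over 32851 promoter windows of this length. The motif GGGCGG occurs once for Spry1, starting 60 bases before the start, and at 110 and 7 bases before it for Spred1. It was not found for Spry2 or Fgfr2, and 32.7% of all windows hold it. The ETS motif CCGGAAG (6.91% of all windows), the AP-1 motif TGANTCA (6.75%), the CRE motif TGACGTCA (1.55%) and TATAAA (12.4%) were not found in these 4 windows on either strand.

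Spred proteins, relatives of Sprouty, inhibit the activation of RAF by RAS. Spred1 (chr2:117121374-117182279, plus strand) was high in basal cells, with AP and HSL libraries together at a lower level. It was at 278 to 393 CPM in basal libraries (median 334), 67.6 to 89.1 in AP libraries (median 78.0) and 62.1 to 86.2 in HSL libraries (median 71.9). Every basal library lay far above every luminal library, and AP and HSL libraries overlapped. Spred1 was 4.26-fold lower in AP than in basal cells (log2 difference -2.09 ± 0.12, adjusted p = 2.45e-10) and 4.57-fold lower in HSL than in basal cells (log2 difference -2.19 ± 0.12, adjusted p = 8.78e-11). Between HSL and AP cells it was not called, and its interval was the narrowest of the 9 members (log2 difference -0.10, 95% interval -0.34 to 0.14, adjusted p = 0.529).

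Spred2 (chr11:19924375-20024026, plus strand) was at 47.6 to 80.2 CPM in basal libraries (median 58.8), 12.6 to 35.02 in AP libraries (median 17.4) and 31.3 to 43.4 in HSL libraries (median 35.2). Every basal library lay above every luminal library, and AP sample 3, at 35.02, was the one AP library within the HSL range. Spred2 was 2.90-fold lower in AP than in basal cells (log2 difference -1.54 ± 0.22, adjusted p = 1.14e-05) and 1.66-fold lower in HSL than in basal cells (log2 difference -0.73 ± 0.21, adjusted p = 0.00654). It was 1.75-fold higher in HSL than in AP cells (log2 difference 0.81 ± 0.21, adjusted p = 0.00519), a call lost with samples 1 to 3 only (log2 difference 0.42, adjusted p = 0.351). Per kb of exon Spred1 was above Spred2 in each population, at 49.3 against 13.1 CPM per kb in basal, 11.6 against 4.50 in AP and 10.8 against 7.89 in HSL cells.

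**Figure D3:**
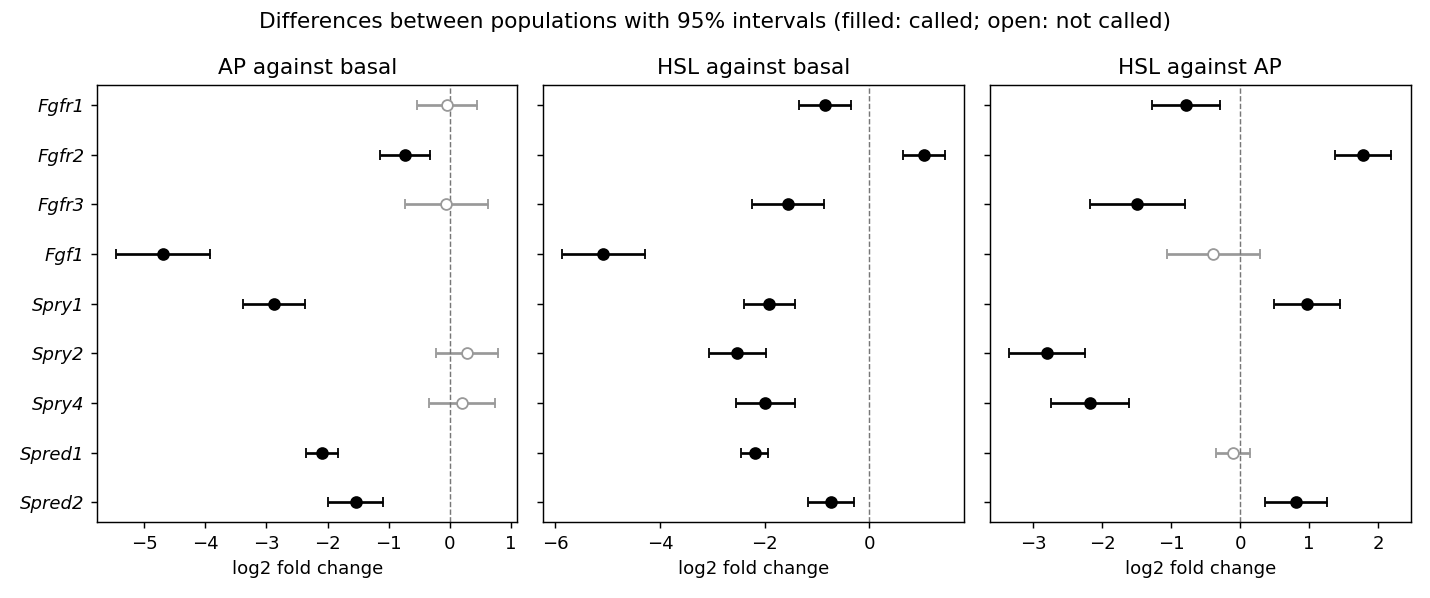
Log2 fold change of the 9 tested members in each of the 3 comparisons, with 95% intervals from edgeR's fit; filled points passed an adjusted p of 0.05 and open points did not. Fgf1 had the largest differences between basal and luminal cells (-4.69 and -5.08), and Fgfr2 was the one member above 0 in HSL against basal.

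Counted by libraries that do not overlap, 5 of the 9 members separated AP from basal libraries, all lower in AP (Fgfr2 by a narrow gap), where 25.9% of all genes separated them. For HSL against basal, 8 of 9 did (1 higher and 7 lower, Fgfr1 being the exception), against 36.9% of all genes. For HSL against AP, 3 of 9 did (Fgfr2 higher, Spry2 and Spry4 lower), against 20.6% of all genes. Over the 18 libraries, the genes whose log2 level followed a member most closely (Pearson r, of 9099 protein-coding genes ranked) were Gpc1 (0.947), Ppme1 (0.942) and Cxxc5 (0.941) for Fgfr2, and Cntn2 (0.988), Efcab1 (0.984) and Numbl (0.983) for Fgf1. They were Slc6a6 (0.971), Cnp (0.965) and Pard6g (0.965) for Spry1, Ephx1 (0.977), Nr4a2 (0.974) and Lcn2 (0.973) for Spry2, and Snai2 (0.986), Irx4 (0.986) and Ptprt (0.985) for Spred1. The 18 libraries are those of the 3 populations for every gene, and the correlations are given as a description.

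Markers of other cell types moved with some members. The summed level of 6 fibroblast markers was 691 to 1097 CPM in the basal libraries, 614 to 1575 in the AP and 40.3 to 111 in the HSL libraries. Like Fgfr1, Fgfr3, Spry2 and Spry4, this sum had its lowest median in HSL libraries and overlapped between basal and AP libraries. Between AP and basal cells 3 of these markers were higher in AP cells, 1 was lower and 2 were not called, and all 6 were lower in HSL cells than in both others. The collagen gene Col1a1 was at a mean of 49.2 CPM in basal cells, 123 in AP and 6.39 in HSL cells, and the proteoglycan gene Dcn at 414, 150.1 and 19.6. Endothelial markers summed to 51.9 to 182 CPM in the basal libraries, 19.9 to 66.2 in the AP and 13.1 to 33.7 in the HSL libraries. Leukocyte markers summed to 61.2 to 284, 9.93 to 89.9 and 5.05 to 110.5 CPM, and adipocyte markers to 93.4 to 298, 25.4 to 119 and 10.5 to 56.6. All these sums had their highest median in basal libraries, as Fgf1, Spry1, Spred1 and Spred2 had, and each sum overlapped between basal and AP libraries. All 6 endothelial markers were called lower in AP and in HSL than in basal cells. The leukocyte sum was mostly Lyz2, at a mean of 131, 29.6 and 31.1 CPM. Of the 6 leukocyte markers, 1 was called lower in AP and 3 in HSL than in basal cells, and the others were not called. The adipocyte sum was almost wholly Fabp4, at a mean of 177, 53.0 and 30.6 CPM, which endothelial cells are also known to express, whereas Adipoq and Plin1 were at 0.138 and 0.163 CPM in basal cells. Of 6 pericyte markers, 4 were lower in AP and 5 in HSL than in basal cells, among them Pdgfrb, at a mean of 37.7, 9.82 and 2.37 CPM. Pdgfrb was at 28.8 CPM or more in every basal library and at most 15.5 in AP libraries. The pericyte sum, 69.0 to 106, 95.04 to 207 and 77.8 to 155 CPM, was carried in the luminal populations by Notch3, at 11.01, 115 and 104 CPM, with 45.7% of its span shared. No marker of these lists was at 0 in all 6 libraries of any population, and their part in the members' differences was not tested.

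Beyond the members, 94 other genes of the pathway were set out in 6 lists, of which 76 were tested. In AP against basal cells 11 were higher, 24 lower and 41 not called, with a median log2 difference of -0.23. In HSL against basal cells 17 were higher, 39 lower and 20 not called (median -0.53), and in HSL against AP cells 13 were higher, 29 lower and 34 not called (median -0.28). The shares of all genes called, given above, are the level to read these counts against. With samples 1 to 3 only, 12, 21 and 25 of the calls in the 3 comparisons were lost. Among the genes named below these were Dusp5 for AP against basal cells, Fgf11, Gab1, Map2k1, Ccnd1, Ets2 and Gpc1 for HSL against basal cells, and Dusp4, Etv4, Etv5, Map2k1 and Sulf1, with the low genes Fgfr4, Fgf9 and Fgf11 and with Ets2, between HSL and AP cells.

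Of 4 other receptors and co-receptors 2 were tested, and both were lower in AP and in HSL than in basal cells. Fgfrl1, a receptor without the kinase part, had a mean of 223 CPM in basal cells, 53.1 in AP and 40.0 in HSL cells (log2 difference -2.07 and -2.48 from basal). Fgfr4 was low in all, at a mean of 4.68, 0.306 and 0.0246 CPM, with 4 HSL libraries at 0. The co-receptor genes Kl and Klb had too few reads to be tested.

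Of 20 other ligand genes 8 were tested. None of the 8 was called between AP and basal cells by edgeR's test or by DESeq2, and 1 of them, Fgf10, had an unadjusted p under 0.05. Fgf10 was called higher in AP cells by limma-voom (adjusted p = 0.00896) and with sample number as a replicate block (adjusted p = 0.00548). HSL cells had 4 of them higher and 2 lower than basal cells had, and likewise 4 and 2 than AP cells. Fgf13, of the subfamily that stays inside the cell, was at a mean of 9.99 CPM in basal cells, 10.6 in AP and 58.5 in HSL cells (log2 difference 2.55 and 2.46, adjusted p = 8.36e-07 and 4.59e-06). Fgf11, of the same subfamily, was at 0.805, 0.957 and 3.24 CPM. The secreted ligands were low: Fgf10 was at 0.274, 1.07 and 0.0220 CPM, with 4 HSL libraries at 0, and Fgf9 at 0.325, 0.493 and 0.0768. Fgf7 was listed at 0 in all libraries, but its whole span is shared with Fam227b, so its level cannot be read here.

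Of 12 other feedback inhibitors 9 were tested. In AP against basal cells, 2 of them were higher and 2 lower. For HSL cells the counts were 2 higher and 5 lower against basal cells, and 3 and 4 against AP cells. The phosphatase genes Dusp4, Dusp5 and Dusp6 encode enzymes that dephosphorylate ERK. Dusp6 was at a mean of 747 ± 96.0 CPM (SD, n = 6) in basal, 933 ± 254 in AP and 232 ± 48.7 in HSL cells, and was lower in HSL cells than in both others (log2 difference -1.69 ± 0.18 and -2.01 ± 0.18, adjusted p = 2.79e-07 and 2.96e-07). Dusp4 was at 15.3, 88.1 and 232 CPM, highest in HSL cells (log2 difference 3.92 ± 0.24 from basal, adjusted p = 2.07e-10), and Dusp5 was at 206, 665 and 47.5 CPM, highest in AP cells (log2 difference 1.69 ± 0.28 from basal, adjusted p = 7.8e-05). Il17rd, a membrane inhibitor of FGF signalling also called Sef, was at 5.89, 0.898 and 4.42 CPM, lower in AP than in basal cells (log2 difference -2.71, adjusted p = 0.000217) and higher in HSL than in AP cells (2.30, adjusted p = 0.00116).

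All 21 genes of the relay from adaptors through RAS to ERK were tested, with a median log2 difference of -0.20, -0.25 and -0.01 in the 3 comparisons. AP cells had 3 of them higher and 4 lower than basal cells, and HSL cells had 5 higher and 7 lower than basal cells and 3 and 3 than AP cells. Gab1, a docking protein, was at a mean of 163 CPM in basal cells, 319 in AP and 91.0 in HSL cells, and Map2k1, the kinase MEK1, at 136, 116 and 229. The adaptor gene Grb2, at 48.6, 44.0 and 47.9 CPM, was not called in any comparison.

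Of 13 genes of ERK-responsive transcription factors and targets, AP cells had 2 higher and 6 lower than basal cells. HSL cells had 2 higher and 9 lower than basal cells, and 2 and 6 than AP cells. Etv4 and Etv5, ETS factors known as transcriptional targets of FGF signalling, were highest in basal cells. Etv4 was at a mean of 45.8 ± 37.8 CPM in basal cells (23.6 to 122, sample 1 being the highest), 3.02 in AP and 10.6 in HSL cells (log2 difference -3.92 ± 0.43 and -2.11 ± 0.40 from basal, adjusted p = 6.89e-07 and 0.000183). Without sample 1 the Etv4 means were 30.5, 2.70 and 8.65 CPM. Etv5 was at 53.1 ± 23.4, 16.9 and 6.52 CPM (-1.65 ± 0.33 and -3.02 ± 0.35, adjusted p = 0.000485 and 7.26e-07). Sample 1 was again the highest basal library, at 97.8 CPM, and without sample 1 the Etv5 means were 44.2, 16.9 and 5.11 CPM. Between the luminal populations the pair had opposite directions, Etv4 being higher in HSL cells (1.81 ± 0.40, adjusted p = 0.00146) and Etv5 lower (-1.37 ± 0.33, adjusted p = 0.00292). Neither of these was called with samples 1 to 3 only (adjusted p = 0.132 and 0.194). The 2 genes higher in AP and in HSL than in basal cells were Ccnd1, a cyclin with 17.7% of its span shared, at 31.6, 309 and 143 CPM (basal libraries 12.1 to 105), and Ets2, at 543, 2015 and 1238 CPM. Without sample 1 the Ccnd1 means were 16.8, 241 and 124 CPM.

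The last list held 24 genes of heparan sulphate carriers, the enzymes that make or trim the chains, and FGF-binding proteins, of which 23 were tested. Of these, AP cells had 4 higher and 10 lower than basal cells. HSL cells had 4 higher and 14 lower than basal cells, and 1 and 13 than AP cells. The gene higher in HSL than in AP cells was Gpc1, a glypican, which was at a mean of 136 CPM in basal cells, 58.9 in AP and 235 in HSL cells, the order of Fgfr2, with 47.7% of its span shared with other genes. Sulf1 and Sulf2 encode the extracellular enzymes that remove sulphate groups from heparan sulphate, and they had different orders. Sulf1 was at a mean of 136 ± 48.2 CPM in basal cells, 9.81 in AP and 1.76 in HSL cells (log2 difference -3.79 ± 0.35 and -6.28 ± 0.39 from basal, adjusted p = 6.13e-08 and 3.57e-10). Sulf2 was at 25.9 ± 10.6, 492 ± 96.5 and 98.8 ± 43.8 CPM (4.25 ± 0.31 and 1.93 ± 0.28, adjusted p = 3.95e-09 and 1.14e-05). Hs6st2, a sulphotransferase, was at 40.6 ± 20.0, 0.281 and 0.122 CPM. The carrier gene Sdc4, at 1421, 1552 and 1112 CPM, was not called in any comparison, but with sample number as a replicate block it was lower in HSL than in basal cells (log2 difference -0.35, adjusted p = 0.00228) and than in AP cells (-0.48, adjusted p = 0.000308).

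**Figure D4:**
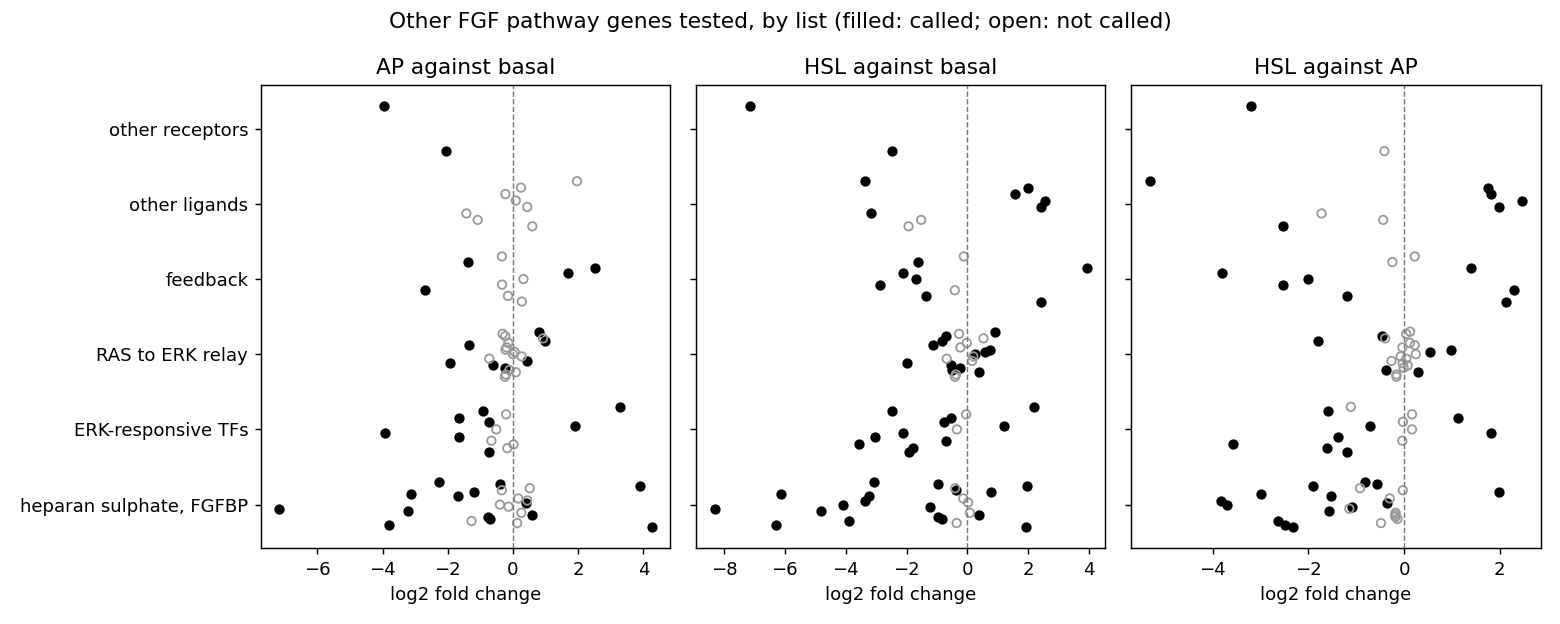
Log2 fold change of the 76 other pathway genes tested, in 6 lists, for each of the 3 comparisons; filled points passed an adjusted p of 0.05 and open points did not. In HSL against AP, 29 of the 76 were called lower and 13 higher.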

How the data were processed

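The authors deposited whole-number counts per gene for each library, and RPKM values beside them, per the file headers, which served here as a check on the files. Reads were placed on GRCm38, the build named in the submitters' processing notes; which aligner and counter were used is not given in the sources used here. From 52636 identifiers, 52489 matched GENCODE M21, which gave symbols and coordinates; the other 147 held at most 0.00677% of a library's counts and were left out. Sample groups and numbers came from the titles. Library totals were 29899462 to 91095830 counts for basal, 37391691 to 62505465 for AP and 26516293 to 52404937 for HSL.

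Counts were tested with edgeR 4.0.16 (R 4.3.3): TMM scaling, genes kept by filterByExpr with a minimum count of 10, robust quasi-likelihood fits over all 18 libraries with 1 mean per population, and Benjamini-Hochberg adjustment over 16471 genes, called at 0.05. Levels are CPM on TMM-scaled library sizes, and levels per kb use the union of exons. Ratios used counts per kb of exon with 0.5 added to each count. Fits were tested on simulated data. Libraries with 1 sample number varied together: in all 18 such pairs, deviations from the population means correlated across genes (r = 0.13 to 0.63). Libraries of unlike numbers were not compared in this way, so pairing by number was not tested. The main edgeR tests did not use the number. The series' design names 6 mice, and the labels do not say whether 1 number is the same mouse in each population; p-values measure the spread between these libraries. Alternatives were other scalings, filters and tests (DESeq2 1.42.0, limma-voom with limma 3.58.1), the replicate block, leaving out each sample number, and samples 1 to 3 or 4 to 6 alone, whose files carry different number series.

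The members, the lists and the tests were chosen with earlier results of these data known. All 10 members are named. List genes are named where their mean reached 5 CPM in 1 population, and receptors and ligands at any level. The genes of most like pattern are given for 5 members.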

Additional observations from a re-analysis of the deposited data

Results flagged for a closer look

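Each of 36 groups of 6 libraries was checked for a value far from the others. Chance alone marks about 1 in 20 such groups if the values follow a normal distribution, which counts near 0 do not. In basal libraries, Fgfr3 was at 92.7 CPM in sample 3, with the next at 49.0. Spred2 was at 80.2 CPM in the same library, with the next at 59.4. Fgf1 was at 176 CPM in basal sample 1, with the next at 397, and the log2 ratio of Fgfr2 to Fgfr1 in that library was 2.75, with the next at 1.93. In HSL libraries, Spry4 was at 3.37 CPM in sample 4, with the next at 7.62. Fgf2 was at 0.0412 CPM in HSL sample 6, from 1 count, with all the others at 0, a pattern that this check always marks.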

How the results depend on the processing

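Of 432 alternative values for the 27 member differences, 417 kept their direction and their side of the threshold. Adding the sample number as a replicate block changed none of the 27 calls: the log2 difference of Fgfr2 between HSL and basal cells, for example, was 1.04, from 1.05. With the block 46, 60 and 47 pathway genes were called, from 35, 56 and 42. The signs that turned were those of uncalled differences between AP and basal cells. For Fgfr1 the log2 difference was 0.076 with total-count scaling and 0.051 with samples 4 to 6 only, against -0.05, and without each sample number in turn it ranged from -0.077 to 0.014, the highest without sample 1. For Fgfr3 it was 0.059 and 0.44 (adjusted p = 0.0272 for samples 4 to 6 only), against -0.06, and without each sample number it ranged from -0.19 to 0.11, above 0 without sample 1 and without sample 3.

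With samples 1 to 3 only, which leaves fewer libraries, all genes called fell to 3718 from 7356 for AP against basal, to 5674 from 9621 for HSL against basal and to 1491 from 6571 for HSL against AP. Pathway genes called were then 23, 35 and 17, from 35, 56 and 42, and members called for HSL against AP were 3, from 7. Leaving out each sample number in turn gave 5 to 5, 9 to 9 and 6 to 8 members called. All genes called in the same fits ranged from 6205 to 8352, from 8546 to 10651 and from 5207 to 7898. With total-count scaling, 35.6% of the calls for HSL against AP were higher, against 49.6%, and the median of all genes moved to -0.18 from -0.01 (for AP against basal to 0.14 from -0.001).

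The ratio of Fgfr2 to Fgfr1 in AP against basal passed as a replicate block (-0.68, exact sign-flip p = 0.0312) and without sample 1 (-0.75, range without each sample -0.75 to -0.58). The ratio of Spry1 to Spry2 in HSL against basal did not pass as a replicate block (0.57, exact sign-flip p = 0.0625). The causes were not tested. With no filter on low counts Fgf2 entered the test, and 6, 10 and 7 members were called. That fit tested 28035 genes, from 16471. For AP against basal it called 7715 of them, from 7356.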
